A study of Mus musculus with 5 samples.

Results

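Cyclic AMP (cAMP) is cut to AMP by cyclic nucleotide phosphodiesterases, and 10 genes of this group were followed here by symbol: Pde3a, Pde3b, Pde4a, Pde4b, Pde4d, Pde7b, Pde8a, Pde8b, Pde10a and Pde11a. They are 10 of the 32285 genes counted, picked by name with no measured value in the rule, and all 10 were present in both tables. Single nuclei of mouse interscapular brown fat were sorted and counted on the 10x Genomics platform, and the counts come as 2 tables. The first, called the genotype matrix here, joins 1 library of control mice (WT, littermates that carried Ucp1-Cre or the floxed Stx4a allele alone) and 1 library of Ucp1-STX4KO mice, both at 3 months of age. In the latter, Cre driven by the Ucp1 promoter deletes Stx4a in cells that use that promoter. The second, the aging matrix, joins C57BL/6J mice of 2, 12 and 24 months, 1 library each, with no genetic change or treatment named. All mice were male, and how those named in the methods were divided among the libraries is not given in the sources used here. Libraries are told apart only by the number that ends each barcode, from 1 to 2 in the genotype matrix and from 1 to 3 in the aging matrix, and no label ties a number to a genotype or an age. Libraries are therefore named by that number, and values are given in its order. No genotype or age is compared, and no test across samples was possible, since each condition is 1 library. The 95% intervals given below cover counting error only.

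In brown fat, noradrenaline acts on beta-adrenergic receptors of the adipocyte, adenylyl cyclase makes cAMP, and protein kinase A then drives lipolysis and heat production. Phosphodiesterases end that signal, and the families differ in substrate, inhibitors and place in the cell: PDE3 enzymes are blocked by cGMP, PDE4, PDE7 and PDE8 enzymes act on cAMP alone, and PDE10 and PDE11 enzymes cut both cAMP and cGMP. PDE3B is the form through which insulin restrains lipolysis in adipocytes, and PDE3A is best known from heart and vascular smooth muscle.

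The members lie on 8 chromosomes of mm10 (GENCODE M21, GRCm38), from Pde4a at chr9:21165714-21213248, the shortest with a span of 47.5 kb, to Pde4d at chr13:108449948-109953461, the longest with 1504 kb, and all 10 are protein coding. Pde3b lies at chr7:114415281-114539251 and Pde3a at chr6:141249269-141507448. No other gene of the tables overlapped a member on the same strand, whereas 1 gene on the opposite strand overlapped Pde3a, 1 overlapped Pde10a and 2 overlapped Pde8b. RefSeq start-site windows (GRCm38.p6) were at hand for 8 of the 10 members, 18 windows in all. The 250 bases before the start are shown for 1 window of each of 3 members, chosen because their levels were highest in 3 different cell types: Pde4a in adipocyte-like nuclei in 4 of 5 libraries, Pde10a in mural-like nuclei and Pde11a in stromal-like nuclei. The windows of Pde4a and Pde10a lie inside the spans of these genes and that of Pde11a lies just before the gene. Capitals mark a TGACG run read on the other strand, the core of the cAMP response element. The Pde4a window shown is the only 1 of its windows with this run. The Pde4a window just before the annotated start of the gene (chr9:21165464-21165713) had none.
Pde4a, chr9:21183851-21184100, + strand: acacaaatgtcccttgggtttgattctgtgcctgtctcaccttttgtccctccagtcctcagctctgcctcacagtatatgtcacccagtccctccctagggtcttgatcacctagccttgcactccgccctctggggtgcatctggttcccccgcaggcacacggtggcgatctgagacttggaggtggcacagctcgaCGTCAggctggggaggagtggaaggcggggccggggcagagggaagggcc
Pde10a, chr17:8801495-8801744, + strand: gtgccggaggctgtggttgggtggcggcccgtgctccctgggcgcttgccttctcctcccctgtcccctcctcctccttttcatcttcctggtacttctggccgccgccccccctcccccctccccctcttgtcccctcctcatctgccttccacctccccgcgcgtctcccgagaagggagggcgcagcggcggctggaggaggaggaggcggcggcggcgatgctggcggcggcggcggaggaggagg
Pde11a, chr2:76338939-76339188, - strand: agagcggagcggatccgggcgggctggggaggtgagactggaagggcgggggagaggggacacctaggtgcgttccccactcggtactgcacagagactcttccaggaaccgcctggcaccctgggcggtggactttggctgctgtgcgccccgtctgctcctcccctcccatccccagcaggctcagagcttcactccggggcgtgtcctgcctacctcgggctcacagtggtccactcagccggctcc
Searching both strands, the full cAMP response element TGACGTCA was in 0 of the 18 member windows and in 1.79% of all 32851 windows of the same length. Its core TGACG, which the full element contains, was in 4 member windows (22.2%), 1 each of Pde4a, Pde4b, Pde8a and Pde8b, against 20.8% of all windows. The DR1 repeat, to which PPAR and RXR bind as a pair, was in 0 member windows and in 0.0396% of all. These matches are letters only.

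The libraries held 76195924 and 39857819 unique molecular identifiers (UMIs, counted RNA molecules) in the genotype matrix and 14486189, 19278264 and 20891602 in the aging matrix, with medians of 5998 and 3284.5 and of 891, 1635 and 1719.5 UMIs per barcode. Mitochondrial genes took 0.213% and 0.0852% of UMIs in the genotype matrix and 3.89%, 12.6% and 6.35% in the aging matrix, and any 2 libraries shared 23 to 45 barcode sequences. The labels call the nuclei brown adipocytes. By marker lists, adipocyte-like nuclei were 10189 and 3725 in the genotype matrix but only 549, 574 and 212 in the aging matrix, where endothelial-like nuclei were 1330, 5224 and 7168. Mural-like nuclei (pericytes and smooth muscle) numbered 139 and 209 in the genotype matrix and 1791, 544 and 621 in the aging matrix, and stromal-like nuclei (fibroblasts and preadipocytes) 254 and 632, and 341, 209 and 301. Macrophage-like nuclei numbered 50 and 589 in the genotype matrix. T lymphocyte-like (118), skeletal muscle-like (277) and endothelial-like nuclei (197) reached 50 only in its library 2, and Schwann-like nuclei (557) only in library 1 of the aging matrix. Stx4a was at 60.2 and 48.7 UMIs per 1000000 in adipocyte-like nuclei of the genotype matrix. Whether these 3' tags lie in the deleted part was not analysed here, and no label was checked by this gene.

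Levels are UMIs of a gene per 1000000 UMIs (CPM) summed over the nuclei of 1 cell type in 1 library, given where at least 50 nuclei were present. To compare shares of nuclei across depths, each nucleus was thinned to 500 UMIs, which 3724 of 3725 adipocyte-like nuclei of genotype library 2, 1774 of 1791 mural-like and 333 of 341 stromal-like nuclei of aging library 1, and all others of these 3 types, reached. A ratio divides the CPM of a cell type by that of all other typed nuclei of the same library. Among all typed nuclei, adipocyte-like ones were the most numerous in the genotype matrix. In the aging matrix these were mural-like nuclei in library 1 (1791 against 1330 endothelial-like) and endothelial-like nuclei in libraries 2 and 3. For adipocyte-like nuclei the others hold no adipocyte-like nuclei, and in the genotype matrix stromal-like nuclei were the most numerous of them. A gene was called higher or lower where the ratio of a type to the others was at least 2, or at most 0.5, in every library that had both classes. The share of all tested genes so called (genes with at least 200 UMIs) is given beside each count of members, except where said.

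The members were highest in different cell types. Pde3b and Pde7b were highest in adipocyte-like nuclei in 5 of 5 libraries, and Pde4a and Pde8a in 4 of 5. Pde3a, Pde4d, Pde8b and Pde10a were highest in mural-like nuclei in 5 of 5 libraries, and Pde11a in stromal-like nuclei in 5 of 5. Pde4b was lowest in adipocyte-like nuclei in 5 of 5 libraries, and its highest type changed from library to library among mural-like, endothelial-like and skeletal muscle-like nuclei.

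**Figure D1:**
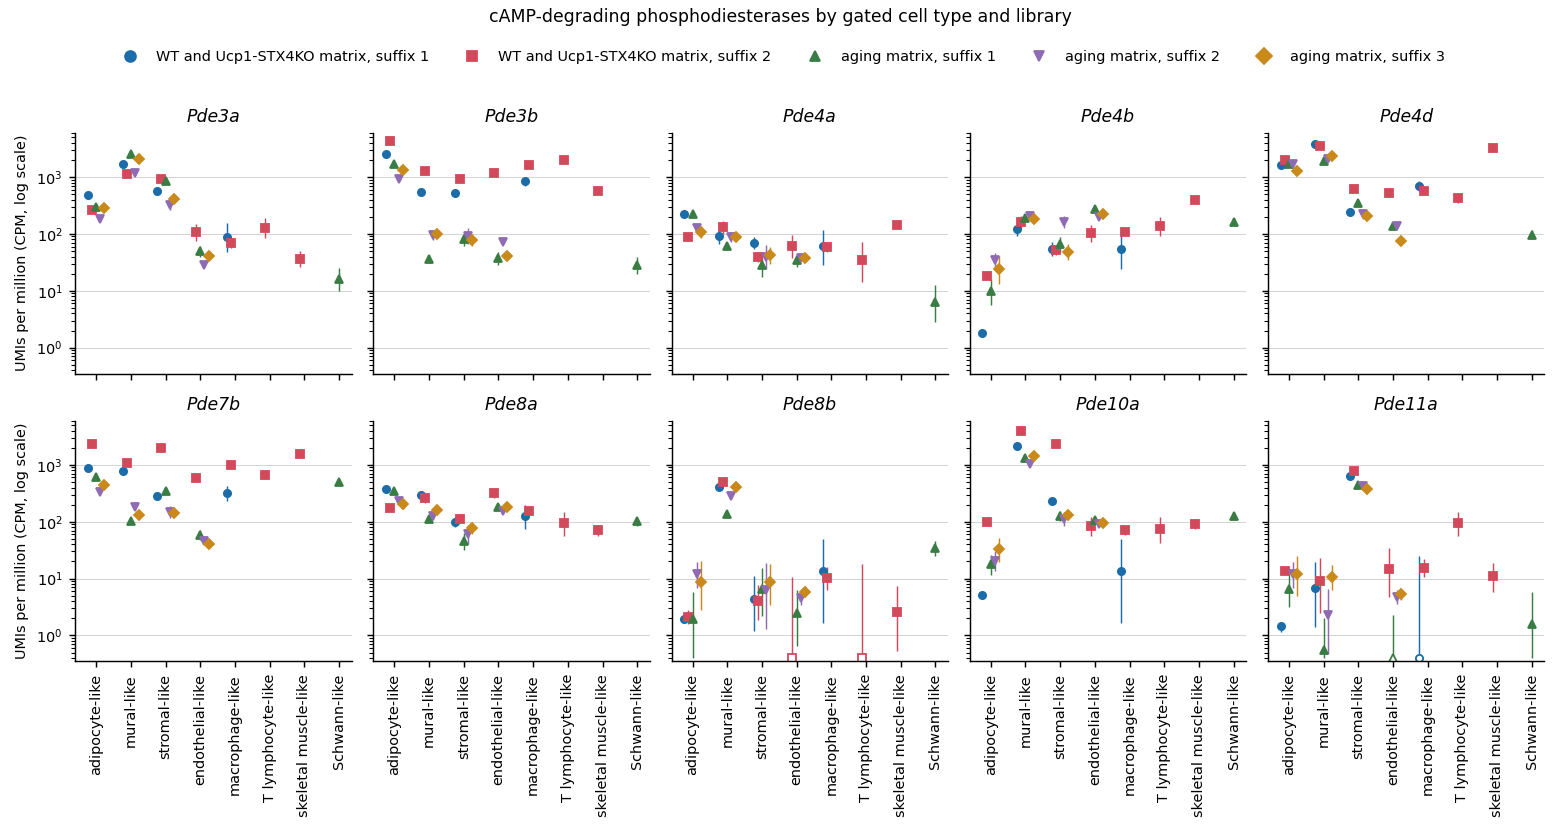
Level of each member (CPM, log axis) by cell type, with 1 symbol per library (its number is the suffix in the legend) and lines for 95% counting intervals; open symbols at the lower edge mark 0 UMIs. Pde3b stands highest in adipocyte-like nuclei, Pde10a and Pde8b in mural-like nuclei and Pde11a in stromal-like nuclei in all 5 libraries.

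Pde3b, the insulin-responsive form of adipocytes, was at 2493 and 4245 CPM in libraries 1 and 2 of the genotype matrix and 1671, 922 and 1331 CPM in libraries 1, 2 and 3 of the aging matrix in adipocyte-like nuclei. In mural-like nuclei it was at 550.1 and 1293 CPM (genotype) and 36.2, 94.7 and 100.2 CPM (aging), and in stromal-like nuclei at 516 and 940.1 CPM (genotype) and 81.4, 92.7 and 79.1 CPM (aging). Every library thus had its highest Pde3b level in adipocyte-like nuclei, and the 5 adipocyte-like intervals overlapped no interval of another type in the same library. The ratio of adipocyte-like to other nuclei was 4.38 (4.12 to 4.67) and 3.68 (3.6 to 3.77) in the genotype matrix and 40.2 (35.7 to 45.5), 12.1 (11.1 to 13.2) and 27.3 (24.7 to 30.2) in the aging matrix. Thinned, 65.5% and 77.6% (99.8% and 99.7% without thinning) of adipocyte-like nuclei of the genotype matrix and 53.4%, 38.0% and 46.7% (89.6%, 76.5% and 88.7% without thinning) of those of the aging matrix kept a Pde3b UMI. The shares were 25.9% and 50.7% (84.2% and 91.4% without thinning) and 1.63%, 5.88% and 4.51% (4.8%, 16.9% and 14.5% without thinning) in mural-like nuclei. Outside the adipocyte, the next highest types of genotype library 2 were T lymphocyte-like nuclei at 1969.5 CPM and macrophage-like nuclei at 1630.4 CPM, levels that are set beside carried-over RNA below.

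Pde3a, the cardiovascular form, was highest in mural-like and not in adipocyte-like nuclei. It was at 1693 and 1130.2 CPM (genotype) and 2533, 1162 and 2110.1 CPM (aging) in mural-like nuclei. In stromal-like nuclei it was at 568 and 932 CPM (genotype) and 844, 316 and 405 CPM (aging), and in adipocyte-like nuclei at 485 and 266 CPM (genotype) and 295, 182 and 289 CPM (aging). The order mural-like, stromal-like, adipocyte-like held in all 5 libraries, with intervals that did not overlap between neighbours. Mural-like nuclei held 3.49 (3.25 to 3.76) and 3.9 (3.55 to 4.27) times the level of the other nuclei in the genotype matrix and 11.1 (10.4 to 11.8), 20.6 (18.8 to 22.6) and 30.2 (28.2 to 32.3) times in the aging matrix. Endothelial-like nuclei of the aging matrix, which lie against the mural cells in the vessel, had 49.5, 28.2 and 41.6 CPM. The adipocyte-like to other ratio of Pde3a was 0.633 and 0.608 in the genotype matrix but 0.219, 1.13 and 1.12 in the aging matrix, where mural-like nuclei numbered 1791, 544 and 621.

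The rolipram-sensitive PDE4 enzymes had their highest levels in different types. Pde4d, whose product is held at many anchoring sites, was at 3833 and 3571 CPM (genotype) and 1934, 2035 and 2336 CPM (aging) in mural-like nuclei. In adipocyte-like nuclei it was at 1628 and 2007 CPM (genotype) and 1710.2, 1687 and 1271 CPM (aging), and so below mural-like nuclei. The mural-like to adipocyte-like ratio was 2.35 (2.24 to 2.47) and 1.78 (1.69 to 1.87) in the genotype matrix and 1.13 (1.08 to 1.18), 1.21 (1.14 to 1.28) and 1.84 (1.7 to 1.99) in the aging matrix. All 5 of these ratios were above 1, but only 1 reached 2. Stromal-like nuclei had 247 and 605 CPM (genotype) and 355, 223 and 210.0 CPM (aging), and skeletal muscle-like nuclei of genotype library 2 had 3209 CPM.

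Pde4a, a widely used cAMP-specific form, was at 221 and 87.7 CPM (genotype) and 225, 125 and 109 CPM (aging) in adipocyte-like nuclei. Mural-like nuclei had 91.7 and 133 CPM (genotype) and 60.5, 87.1 and 88.9 CPM (aging). In genotype library 2 the order of these 2 types was turned, and skeletal muscle-like nuclei were highest. They stood at 1.66 times the adipocyte-like level there, and mural-like nuclei at 1.51 times. In aging library 3 the intervals of the first and second type overlapped. The adipocyte-like to other ratio was 2.92 (2.45 to 3.49) and 1.22 (1.1 to 1.35) in the genotype matrix and 5.33 (4.55 to 6.24), 2.95 (2.47 to 3.52) and 2.59 (1.97 to 3.36) in the aging matrix. Pde4b, known for its part in leukocyte activation, was at 1.82 and 17.8 CPM (genotype) and 9.93, 34.9 and 24.3 CPM (aging) in adipocyte-like nuclei, from 129 and 432 UMIs in the genotype matrix and 15, 47 and 14 UMIs in the aging matrix. In mural-like nuclei it was at 123 and 160.2 CPM (genotype) and 192, 209 and 179.7 CPM (aging), and in endothelial-like nuclei of the aging matrix at 271, 196 and 220.2 CPM. Adipocyte-like nuclei were lower than the other nuclei in every library, with ratios of 0.022 (0.0172 to 0.0281) and 0.12 (0.107 to 0.134) in the genotype matrix and 0.0513 (0.0286 to 0.0849), 0.178 (0.13 to 0.237) and 0.116 (0.0636 to 0.196) in the aging matrix. In genotype library 2, skeletal muscle-like nuclei had 401 CPM, a ratio of 12.9 (11.5 to 14.4), and T lymphocyte-like and macrophage-like nuclei had 139 and 109.7 CPM.

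Pde7b encodes a cAMP-specific enzyme that rolipram does not block. It was at 868 and 2284 CPM (genotype) and 606, 335 and 447 CPM (aging) in adipocyte-like nuclei. The ratios to the other nuclei were 2.11 (1.96 to 2.27) and 1.63 (1.59 to 1.67) in the genotype matrix and 3.15 (2.9 to 3.43), 5.01 (4.45 to 5.62) and 7.7 (6.68 to 8.84) in the aging matrix. Library 2 of the genotype matrix stood above the rest in adipocyte-like and stromal-like nuclei, and its stromal-like level of 1969 CPM came close to its adipocyte-like level, whereas the other libraries had stromal-like levels of 281 CPM (genotype library 1) and 346, 149.6 and 145 CPM (aging). Schwann-like nuclei of aging library 1 had 508 CPM, 2.27 (2.07 to 2.49) times the level of the other nuclei there.

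Pde8a and Pde8b encode high-affinity cAMP enzymes that the general inhibitor IBMX does not block, and they parted by cell type. Pde8a was at 378 and 172 CPM (genotype) and 344, 229 and 206 CPM (aging) in adipocyte-like nuclei. Endothelial-like nuclei were second in the aging matrix, at 185, 154 and 182 CPM. In genotype library 2 they were highest, at 1.84 times the adipocyte-like level. Mural-like nuclei had 297 and 259 CPM (genotype) and 112, 125 and 158 CPM (aging). Stromal-like nuclei had 100.3 and 113 CPM (genotype) and 45.4, 61.1 and 77.8 CPM (aging). In aging library 3 the intervals of the first 3 types overlapped in turn. The adipocyte-like to other ratio ran from 1.19 (0.979 to 1.42) to 2.88 (2.58 to 3.22), and 2 of 5 ratios reached 2. Pde8b was at 416 and 503 CPM (genotype) and 137, 284 and 402 CPM (aging) in mural-like nuclei. In adipocyte-like nuclei it was at 1.99 and 2.15 CPM (genotype) and 1.99, 11.9 and 8.67 CPM (aging), from 3 to 141 UMIs per library, and the mural-like to other ratio was 204 (164 to 255) and 181 (140.2 to 236) in the genotype matrix and 12.9 (9.71 to 17.3), 51.1 (39.3 to 67.1) and 64.7 (52.2 to 80.9) in the aging matrix. Thinned, 16.5% and 20.1% (59.0% and 49.8% without thinning) of mural-like nuclei of the genotype matrix and 6.2%, 8.82% and 13.4% (15.3%, 30.5% and 40.3% without thinning) of those of the aging matrix kept a Pde8b UMI. In adipocyte-like nuclei the shares were 0.0981% and 0.134% (1.27% and 1.07% without thinning) in the genotype matrix.

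The dual-substrate enzymes were each highest in 1 type in all 5 libraries. Pde10a, best known from the striatum, was at 2160.1 and 3967 CPM (genotype) and 1323, 1033 and 1446 CPM (aging) in mural-like nuclei. The ratios to the other nuclei were 262 (236 to 291) and 15.1 (14.4 to 16.0) in the genotype matrix and 14.9 (13.5 to 16.4), 12.6 (11.6 to 13.7) and 15.2 (14.2 to 16.3) in the aging matrix. Stromal-like nuclei had 232 and 2345 CPM (genotype) and 127, 114 and 132 CPM (aging), with library 2 of the genotype matrix far above the others. Adipocyte-like nuclei had 5.11 and 99.9 CPM (genotype) and 17.9, 20.8 and 32.9 CPM (aging), again with genotype library 2 highest. Thinned, 57.6% and 73.2% (96.4% and 92.8% without thinning) and 39.0%, 33.3% and 43.5% (66.9%, 65.1% and 76.2% without thinning) of mural-like nuclei kept a Pde10a UMI. In adipocyte-like nuclei the shares were 0.186% and 4.51% (2.25% and 21.6% without thinning) and 1.28%, 1.57% and 1.89% (2.73%, 4.53% and 8.49% without thinning).

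Pde11a was at 633 and 785 CPM (genotype) and 439, 429.8 and 369 CPM (aging) in stromal-like nuclei, where fibroblasts and preadipocytes are gated together. Mural-like nuclei had 6.71 and 9.15 CPM (genotype) and 0.565, 2.29 and 10.6 CPM (aging) and adipocyte-like nuclei 1.44 and 13.7 CPM (genotype) and 6.62, 11.9 and 12.1 CPM (aging). Endothelial-like nuclei of aging library 1 had 0 Pde11a UMIs, which allows up to 1.83 CPM at 3 counts. Stromal-like nuclei exceeded the other nuclei by ratios of 428 (348 to 532) and 55.3 (49.6 to 61.7) in the genotype matrix and 233 (139 to 421), 80.1 (60.8 to 107) and 61.8 (49.0 to 78.4) in the aging matrix. The library values did not overlap between stromal-like and any other type. Thinned, 15.4% and 24.5% (35.4% and 54.6% without thinning) and 14.7%, 11.5% and 12.0% (22.9%, 28.7% and 23.9% without thinning) of stromal-like nuclei kept a Pde11a UMI, against 0.0687% and 0.859% (0.716% and 5.45% without thinning) of adipocyte-like nuclei of the genotype matrix. Outside stromal-like nuclei, the highest level was in T lymphocyte-like nuclei of genotype library 2 (94.5 CPM from 19 UMIs).

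Set against the other typed nuclei, adipocyte-like nuclei of the genotype matrix were at least 2-fold higher in both libraries for 1 of 10 members, Pde3b (8.13% of all genes tested), and at least 2-fold lower for 4, Pde4b, Pde8b, Pde10a and Pde11a (17% of all genes tested). In the aging matrix 3 members were higher in all 3 libraries, Pde3b, Pde4a and Pde7b (10.8%), and 3 were lower, Pde4b, Pde8b and Pde10a (16.5%). The median log2 ratio of the 10 members, with 5 CPM added to each level, was -0.14 and -0.22 in the genotype matrix and -0.71, 0.40 and 0.20 in the aging matrix, beside 0.01 and -0.14 and -0.04, -0.07 and 0.05 for all genes tested. Pde8b had ratios of 0.0178 (0.0142 to 0.0222) and 0.0547 (0.0398 to 0.074) in the genotype matrix, Pde10a of 0.00732 (0.00649 to 0.00824) and 0.0888 (0.0847 to 0.093) and Pde11a of 0.00418 (0.00336 to 0.00517) and 0.0486 (0.0431 to 0.0546). In the aging matrix they were 0.0267, 0.341 and 0.196 for Pde8b, 0.0251, 0.109 and 0.145 for Pde10a and 0.143 (0.0678 to 0.266), 0.56 (0.316 to 0.928) and 0.517 (0.207 to 1.08) for Pde11a. Pde4d lay between, at 1.29 (1.24 to 1.35) and 1.59 (1.55 to 1.63) in the genotype matrix and 1.65 (1.58 to 1.73), 4.86 (4.61 to 5.11) and 4.26 (3.93 to 4.6) in the aging matrix. The calls for Pde4a, Pde7b and Pde8a turned on the library, since without library 2 of the genotype matrix all 3 were called higher there beside Pde3b. Where endothelial-like and skeletal muscle-like nuclei were left out of the others, a choice made after seeing the data, 1 member was higher in the aging matrix (Pde3b) and 5 were lower (Pde3a, Pde4b, Pde8b, Pde10a and Pde11a). The share of all genes so called was not computed for this choice or without library 2.

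**Figure D2:**
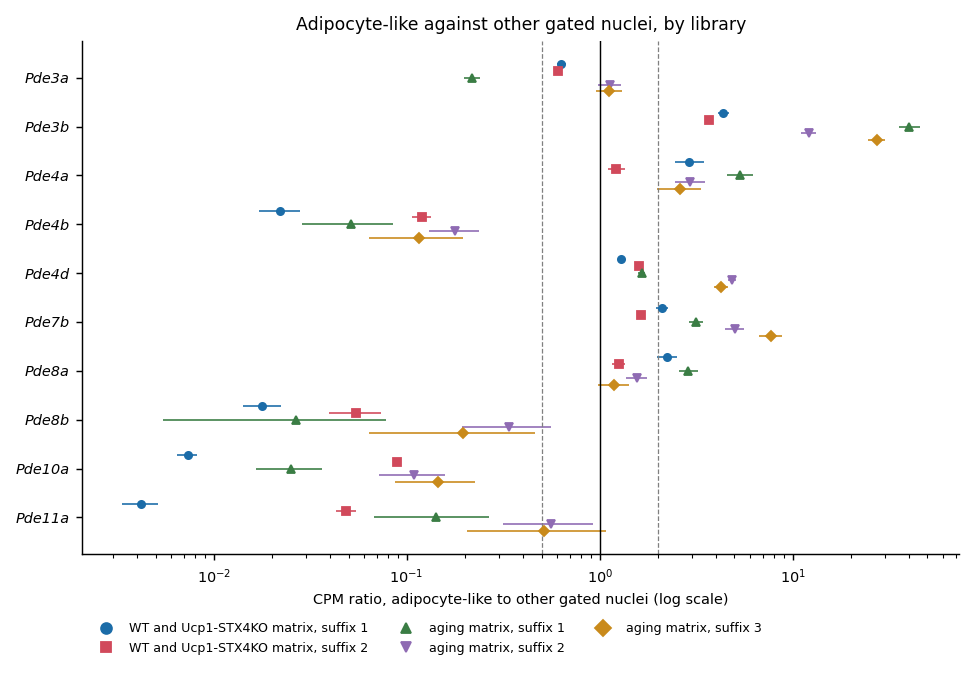
Ratio of the CPM in adipocyte-like nuclei to that in the other typed nuclei (log axis), with 1 symbol per member and library and lines for 95% counting intervals; dashed lines mark 0.5 and 2. Pde3b lies right of 2 in all 5 libraries, and Pde4b, Pde8b and Pde10a lie left of 0.5 in all 5.

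Levels of different genes were set side by side as CPM and per length. Within adipocyte-like nuclei, Pde3b ranked 1 of the 10 members per kb of gene span in all 5 libraries, at 20.1 and 34.2 (genotype) and 13.5, 7.43 and 10.7 (aging) CPM per kb. Pde4d, which ranked 1 to 3 by CPM, ranked 4 to 6 on this scale, at 1.08 and 1.33 (genotype) and 1.14, 1.12 and 0.845 (aging) CPM per kb. Pde4a, with the shortest span, moved the other way and ranked 2 or 3 at 4.64 and 1.85 (genotype) and 4.73, 2.62 and 2.3 (aging) CPM per kb. Per kb of exon, Pde3b ranked 1 in 4 of 5 libraries at 274 and 466 (genotype) and 183, 101 and 146 (aging) CPM per kb and Pde4d ranked 1 to 3 at 136 and 167 (genotype) and 142, 140.5 and 106 (aging) CPM per kb. Whether intronic reads were counted is not given in the sources used here. The libraries hold 3' tags, so counts need not grow with exon length. Neither length is preferred, and no rank is read as an order of molecule numbers.

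**Figure D3:**
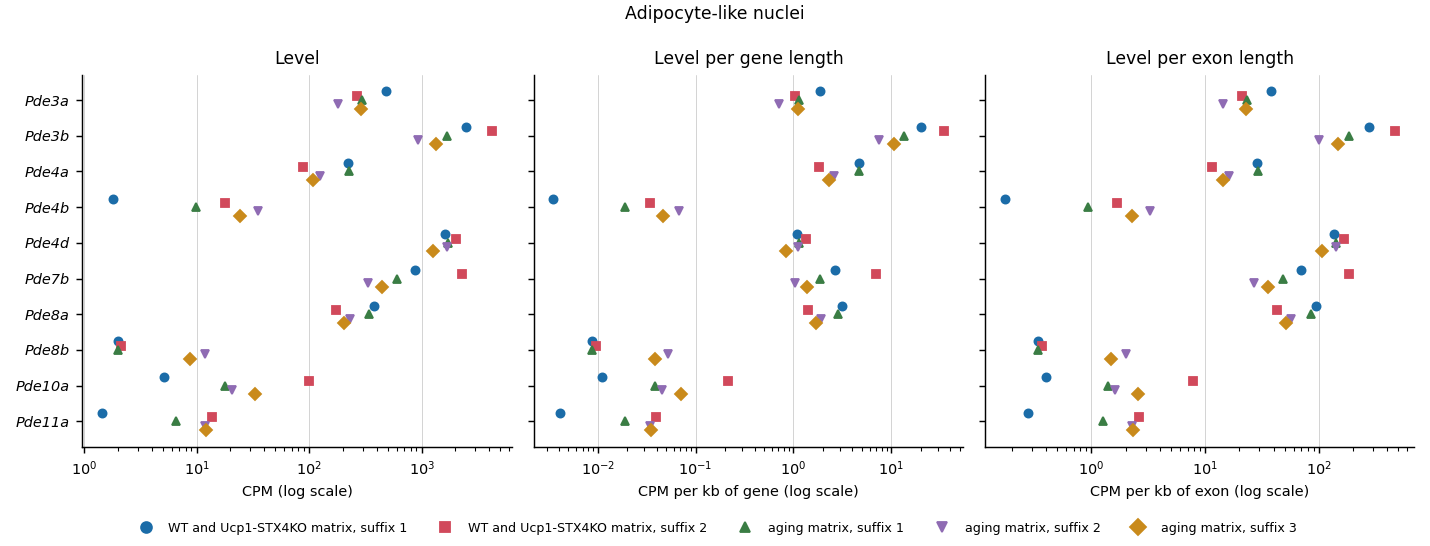
Level of each member in adipocyte-like nuclei as CPM, as CPM per kb of gene span and as CPM per kb of exon (log axes), with 1 symbol per library. Pde3b is highest per kb of span in all 5 libraries, and Pde4d moves down and Pde4a up between the first panel and the second.

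The same comparison was made for each other type. In mural-like nuclei 4 members were at least 2-fold higher in both libraries of the genotype matrix, Pde3a, Pde4b, Pde8b and Pde10a (9.56% of all genes tested), and 1 was lower, Pde3b (13.9%). Mural-like nuclei of the aging matrix had 4 higher members, Pde3a, Pde4d, Pde8b and Pde10a (5.92%), and 1 lower, Pde11a (9.45%). Pde3a, Pde8b and Pde10a were thus called in both matrices, and 4 of 10 was the largest share of members called higher in any type. In stromal-like nuclei Pde10a and Pde11a were higher in the genotype matrix (10.8%) and Pde3b, Pde4a and Pde4d were lower (13%). In stromal-like nuclei of the aging matrix Pde11a alone was higher (4.92%), and Pde8a and Pde8b were lower (8.47%).

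In endothelial-like nuclei of genotype library 2, the 1 library of that matrix with enough of them, Pde4b was higher (14.7%) and 7 members were lower, all but Pde4a, Pde4b and Pde8a (20.5%). In the aging matrix 0 members were higher (7.6%) and 8 were lower, all but Pde4b and Pde8a (15.3%). Among leukocytes of the genotype matrix, Pde4b was the 1 member higher in macrophage-like nuclei in both libraries (11.6%; 8 and 211 UMIs), while Pde3a, Pde3b, Pde4d, Pde7b and Pde11a were lower (18.7%). T lymphocyte-like nuclei, from 1 library, likewise had Pde4b higher (17.2%) and 6 members lower, Pde3a, Pde4a, Pde4d, Pde7b, Pde8b and Pde10a (25.7%). Skeletal muscle-like nuclei, also from 1 library, had Pde4b higher (9.4%) and Pde3a, Pde3b, Pde8a, Pde8b, Pde10a and Pde11a lower (34.1%). Schwann-like nuclei of aging library 1 had Pde7b higher (12%) and Pde3a, Pde3b, Pde4a, Pde4d, Pde10a and Pde11a lower (26.7%), and these nuclei also carried 3546 CPM of the 8 stromal markers beside 11653 CPM of Schwann markers.

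Droplets also take up free RNA, and nuclei typed as something else carried adipocyte markers: in the genotype matrix the median was 2 or 3 of the 8 markers in every type with at least 50 nuclei, against 0 or 1 in the aging matrix. As a measure of this, the level in each type was divided by that in adipocyte-like nuclei of the same library for Ucp1, Cidea, Elovl3, Dio2 and Otop1, 5 adipocyte genes that the typing did not use and that were picked after seeing the data. Pde3b lay within the range of these 5 genes in 8 of 9 library and type pairs of the genotype matrix and in 6 of 10 of the aging matrix. T lymphocyte-like nuclei were among these, at 0.464 of the adipocyte-like Pde3b level in a range from 0.266 to 0.773. The pair of the genotype matrix above the range was macrophage-like nuclei of library 2. Pde7b lay above the range in 4 of 9 pairs and 8 of 10, Pde8a in 6 of 9 and 9 of 10, and Pde4d in 5 of 9 and 6 of 10, with 2 pairs of the genotype matrix below it. Pde3a lay above it in 4 of 9 and 9 of 10, and Pde4a in 5 of 9 and 9 of 10. Pde4b lay above it in 9 of 9 and 10 of 10, Pde10a in 8 of 9 and 10 of 10, Pde8b in 7 of 9 and 10 of 10, and Pde11a in 7 of 9 and 8 of 10. Some of these pairs rest on few UMIs, such as Pde8b in endothelial-like nuclei of aging library 1 (4 UMIs, and 3 in adipocyte-like nuclei). How much of the levels within the range is carried-over RNA was not tested. The 5 genes measure RNA carried over from adipocytes only. The part of RNA carried over from other types in levels within or above the range was not tested. Adipocyte-like nuclei in turn carried endothelial markers in the aging matrix, at 230, 1145 and 1420 CPM. Endothelial-like nuclei of the same libraries had 14378, 8829 and 14215 CPM of these markers. The part of such RNA in the low adipocyte-like levels was not tested.

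**Figure D4:**
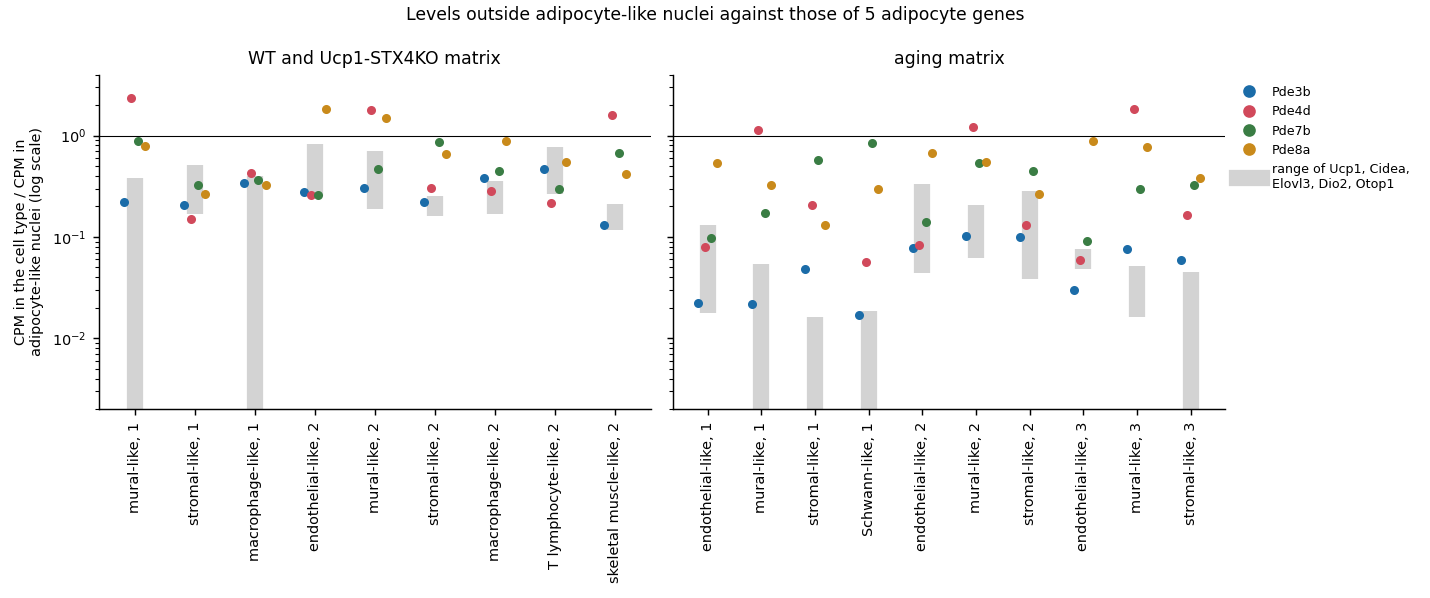
Level of Pde3b, Pde4d, Pde7b and Pde8a in each non-adipocyte type divided by that in adipocyte-like nuclei of the same library (log axis; the number after each type is its library), with grey bars for the range of Ucp1, Cidea, Elovl3, Dio2 and Otop1; bars that reach the lower edge end below the axis or at 0. Pde3b points mostly lie in the bars, and Pde4d lies above 1 in all 5 mural-like columns.

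The 2 libraries of the genotype matrix differed from each other within the same type. In adipocyte-like nuclei 4 of the 9 members tested were at least 2-fold higher in library 2 than in library 1, Pde4b, Pde7b, Pde10a and Pde11a (7.49% of all genes tested), and 2 were at least 2-fold lower, Pde4a and Pde8a (22.6%). The library 2 to library 1 ratio was 19.6 (17.5 to 21.9) for Pde10a, 9.8 (8.03 to 12.0) for Pde4b, 9.52 (7.61 to 12.0) for Pde11a and 2.63 (2.6 to 2.66) for Pde7b. It was 0.397 (0.38 to 0.416) for Pde4a and 0.455 (0.44 to 0.47) for Pde8a. Pde3b was 1.7 (1.69 to 1.72) and Pde4d 1.23 (1.22 to 1.25) times as high. Pde10a, Pde4b and Pde11a had their highest levels outside the adipocyte, as did Pde8b, whose ratio was 1.08 (0.769 to 1.49). Markers of other types differed as well. In adipocyte-like nuclei the stromal markers summed to 19.3 CPM in library 1 and 52.0 in library 2, and the macrophage markers to 24.3 and 69.1. The skeletal muscle markers differed most, at 4.71 CPM in library 1 and 91.4 in library 2. The mural markers, at 62.2 and 41.6 CPM, were the only list of another type that was lower in library 2. The part of RNA from other types in the ratios was not tested.

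In stromal-like nuclei 3 of the 7 members tested were at least 2-fold higher in library 2, Pde4d, Pde7b and Pde10a (7.89% of all genes tested), and 0 were lower (6.42%). The ratio was 10.1 (8.82 to 11.6) for Pde10a, 6.99 (6.17 to 7.95) for Pde7b and 2.45 (2.13 to 2.83) for Pde4d, while Pde11a differed by 1.24 (1.13 to 1.36). The mural markers in these nuclei were lower in library 2 (120.8 against 215.7 CPM), as were the stromal markers (3121 against 6264 CPM), and more of its nuclei sat at the fewest markers allowed (231 of 632 against 11 of 254). Across 9 alternatives the stromal-like Pde10a level of library 2 ran from 1081 to 2356 CPM and that of library 1, over the alternatives that could be computed, from 188 to 254 CPM. In mural-like nuclei the ratio was 1.84 (1.7 to 1.99) for Pde10a, 1.39 (1.21 to 1.6) for Pde7b and 0.932 (0.869 to 0.999) for Pde4d, and that of Pde3b was 2.35 (2.02 to 2.74). With 1 library per condition, genotype, animals and preparation cannot be told apart in these ratios.

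**Figure D5:**
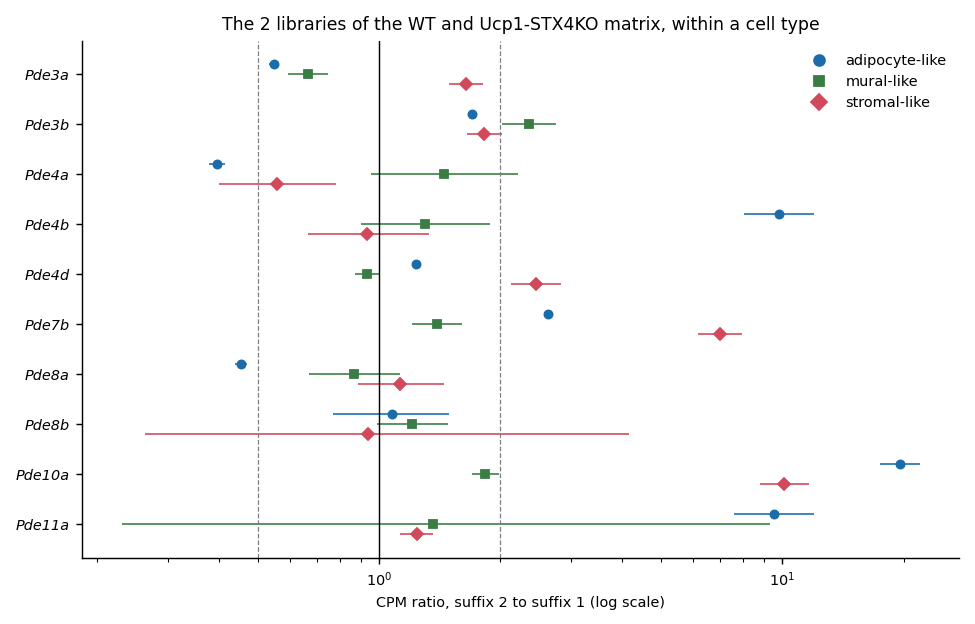
Ratio of library 2 to library 1 of the genotype matrix for each member (log axis), in adipocyte-like, mural-like and stromal-like nuclei, with 95% counting intervals; dashed lines mark 0.5 and 2. Pde10a stands near 20 in adipocyte-like and near 10 in stromal-like nuclei but below 2 in mural-like nuclei.

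Adipocyte-like nuclei with at least 2 of 6 markers of a white-like state (Cyp2e1, Aldh1a1, Nnat, Retn, Lep, Cmklr1) numbered 266 (2.61%) in library 1 and 1158 (31.1%) in library 2 of the genotype matrix, and fewer than 50 in each library of the aging matrix. The number is a range along a score and not a separate type: 2346 and 1119 nuclei lay 1 marker below the limit. Thinned to 500 UMIs, 12 (0.118%) and 155 (4.16%) nuclei met it. Without thinning, white-like nuclei were deeper than the other adipocyte-like nuclei. Their medians were 7622.5 against 6193 UMIs in library 1 and 6604 against 5153 in library 2. None of the 9 members tested was at least 2-fold higher in both libraries (1.95% of all genes tested) or lower (0.225%). The count of lower members turned on the number of markers: with 3 markers needed, which left 63 and 582 white-like nuclei, 0 members were higher (3.63%) and 3 were lower, Pde3a, Pde4a and Pde4b (3.74%). Their ratios were then 0.312 and 0.153 for Pde3a and 0.326 and 0.248 for Pde4a, and Pde4b had 0 UMIs in the white-like nuclei of library 1 and a ratio of 0.312 in library 2. In library 2 alone 4 members were lower with 2 markers needed, Pde3a, Pde4a, Pde4b and Pde10a (310 of 8305 genes tested). The ratios that follow are for 2 markers. Pde3b was at 2589 CPM in white-like nuclei and 2490.1 CPM in the others of library 1, and at 5349 and 3626 CPM in library 2. The ratios were 1.04 (1.01 to 1.07) and 1.48 (1.46 to 1.49). Pde3a had ratios of 0.851 (0.798 to 0.906) and 0.245 (0.227 to 0.265), Pde4a of 0.711 (0.641 to 0.787) and 0.314 (0.278 to 0.354), and Pde8a of 0.827 (0.769 to 0.889) and 0.804 (0.752 to 0.858). All 3 were below 1 in both libraries, as was Ucp1, the uncoupling protein of brown fat, at 0.688 (0.656 to 0.722) and 0.283 (0.272 to 0.295). Pde10a, with 7 and 509 UMIs in white-like nuclei, had ratios of 0.557 (0.223 to 1.16) and 0.475 (0.43 to 0.525). Pde4d was at 1.08 (1.05 to 1.12) and 0.723 (0.709 to 0.737), Pde7b at 0.964 (0.921 to 1.01) and 0.738 (0.724 to 0.752), and Pde4b, from 3 and 65 UMIs, at 0.673 (0.137 to 2.01) and 0.316 (0.239 to 0.413). Pde11a, from 8 and 117 UMIs, was at 2.41 (1.01 to 4.94) and 0.971 (0.769 to 1.22). Over both libraries pooled, the Pde10a ratio was above 1, at 1.72 (1.56 to 1.89), although both library ratios were below 1. Pde7b (1.39 pooled) and Pde4b (1.04 pooled) turned in the same way. Library 2 held most of the white-like nuclei and had the higher adipocyte-like levels of all 3 genes, so the pooled ratios mix 2 unlike libraries.

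Other phosphodiesterases and other genes of the cAMP pathway, 62 in 8 lists, were compared between adipocyte-like and other nuclei in the same way. Akap2 was unmatched by symbol, and the phosphodiesterase list was not limited to enzymes that cut cAMP. In the genotype matrix 52 were tested, of which 6 were higher and 16 lower, beside the 8.13% and 17% of all genes given above. In the aging matrix 48 were tested, of which 8 were higher and 13 lower, beside 10.8% and 16.5%. Of other phosphodiesterases, 0 of 10 tested were higher and 5 lower in the genotype matrix, and 0 of 8 higher and 4 lower in the aging matrix. Adenylyl cyclases, which make cAMP, had 2 of 8 higher and 3 lower, then 2 of 7 and 1. Protein kinase A subunits and inhibitors had 1 of 8 higher and 3 lower, then 2 of 8 and 3. Both Epac genes, cAMP-gated exchange factors of Rap, were lower in both matrices, and 0 of 6 CREB factors and coactivators were called in either.

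G protein alpha subunits had 1 of 5 higher and 1 lower, then 1 of 4 and 1, anchoring proteins of protein kinase A 1 of 10 and 2, then 1 of 11 and 2, and beta-adrenergic receptors 1 of 3 and 0, then 2 of 2 and 0. The highest pooled ratio in the genotype matrix was that of Pde6a, from the phosphodiesterase list (7.28, from 14 UMIs in other nuclei). It was not called, since its lowest library ratio was 1.96. Next were the mitochondrial anchor Akap1 (6.64) and the regulatory subunit Prkar2b (5.37). The lowest were those of Adcy2 (0.00528), Akap6 (0.0107) and Rapgef3 (0.0206). In the aging matrix the highest were the beta3-adrenergic receptor Adrb3 (25.1), Prkar2b (23.0) and Akap1 (16.0), and the lowest Rapgef4 (0.0657), Rapgef3 (0.0860) and Akap6 (0.0932). Pde3b, at 2.85 and 23.3 on the same pooled scale, stood beside Prkar2b in the aging matrix. Its 2.85 lay below both of its library ratios in the genotype matrix, so a pooled ratio need not lie between the library values.

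Likeness of pattern was measured over 11 profiles of the genotype matrix, 1 per cell type and library, as Pearson's r of log2(CPM + 5) among 12907 genes. It is a description, since profiles of 1 library share depth and free RNA. The closest genes were Bag4 (0.96), Mmd (0.95) and Tshr (0.94) for Pde3b, Dlc1 (0.97), Arhgap32 (0.97) and Kif1bp (0.95) for Pde3a, and Tmeff2 (0.97), Serpinf1 (0.96) and Dclk1 (0.96) for Pde11a. For Pde10a they were Errfi1 (0.95), Lpp (0.94) and C1s1 (0.94), for Pde8b Elmod1, Svopl and Slc4a8 (all 0.97), and for Pde4b Lrrfip1 (0.97), Slc25a12 (0.92) and Gm1976 (0.90). Pde4a, Pde8a and Pde4d were less closely matched to their first gene than Pde3a, Pde3b, Pde4b, Pde8b, Pde10a and Pde11a, at 0.93 for Pde4a (Ankzf1), 0.91 for Pde8a (Ipo8) and 0.87 for Pde4d (Trp53inp2).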

How the data were processed

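Nuclei of interscapular brown fat were counted in 5 libraries. The authors deposited whole UMI counts for each barcode, joining libraries in 2 tables. The study names Cell Ranger 6.1.2 on mm10 with the number of cells forced to 10000, and Seurat 4.1.0 for later steps. The aging libraries hold 10000 barcodes each, but the genotype libraries hold 11201 and 9106. Droplets with several nuclei were to be removed by a range of UMIs and genes, which the deposited tables do not have applied; a doublet caller, the annotation release and intron counting are not given in the sources used here. Barcodes with at least 200 UMIs and 100 genes were kept (20307 of 20307 and 27842 of 30000). A nucleus took the type of the only marker list met, with at least 5 different markers for the adipocyte and endothelial lists and 3 for the others, lists holding 7 or 8 genes. Nuclei that met more than 1 list (907 and 1822), which stand in for doublets, or none (2887 and 6405) were left out. Members were in no marker list. Members and lists were chosen with earlier results of these data known, and the numbers of markers needed and the 5 adipocyte genes for carried-over RNA after seeing the data.

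UMIs were summed by type and library. Intervals are exact at 95% (Poisson for CPM, Clopper-Pearson for shares, conditional binomial for ratios) and cover counting error only. Depth per library is given in the results. All members, at most 3 pathway genes at each end of the ratios and up to 3 genes most like each member are named. The likeness result of Pde7b is not reported here. Alternatives were clusters (scanpy 1.11.5, resolution 0.3), 1 marker more, no filter, the authors' full range of 200 to 2000 UMIs and 100 to 3000 genes, thinning to 500 UMIs, mitochondrial genes out of the total, nuclei with 2 or more adipocyte markers out of the others, and each library left out. Sums and calls were tested on simulated data. Python 3.11.15, numpy 2.4.6, scipy 1.17.1, pandas 2.3.3 and matplotlib 3.10.9 were used. The study's full range leaves 0 of 11201 barcodes of genotype library 1.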

Additional observations from a re-analysis of the deposited data

How the results depend on the processing

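No paired analysis was possible because each condition is 1 library and no label ties a barcode number to a sample. The count of members at least 2-fold higher in adipocyte-like nuclei of the genotype matrix, 1 in the results, was 0 with clusters in place of marker typing, where the pooled Pde3b ratio was 1.86, and 0 within the full range of UMIs and genes, which left 204 adipocyte-like nuclei, all of library 2; it ran from 1 to 4 with 1 library left out (4 without library 2). The count of lower members there, 4 in the results, was 1 within the full range (Pde10a): Pde4b, Pde8b and Pde11a had fewer than the 200 UMIs needed there, at ratios of 0.128, 0.263 and 0.451. The count of lower members in white-like nuclei, 0 in the results, was 3 with 1 marker more, beside 448 of 11979 genes tested. It was 3 with nuclei thinned to 500 UMIs (Pde3a, Pde8a and Pde10a, library 2 alone), beside 240 of 1869 genes tested. With 1 library left out it ran from 0 to 4, beside 115 of 11292 and 310 of 8305 genes tested. In the aging matrix, leaving out endothelial-like and skeletal muscle-like nuclei, chosen after seeing the data, gave 1 higher and 5 lower members. For the counts in adipocyte-like nuclei under these alternatives, the share of all genes so called was not computed. The pooled adipocyte-like ratio kept its direction in 98 of 100 recomputed values of the genotype matrix (the others were Pde7b, 1.03 in the results, at 0.973 with clusters and 0.983 with 1 marker more) and 110 of 110 of the aging matrix, and that of white-like nuclei, whose pooled values mix 2 unlike libraries, in 27 of 40. These counts are of pooled ratios, and a library can go the other way. Pde3a of the aging matrix was at 0.564 pooled but above 1 in libraries 2 and 3. The Pde3b ratio ran from 1.86 to 4.38 and from 12.9 to 33.9, and that of Pde4d in the aging matrix from 1.18 to 4.89. The type with the highest level was the same for 18 to 20 of 20 member and library pairs of the genotype matrix (9 of 10 within the full range) and 29 or 30 of 30 of the aging matrix, over the types present under both settings. Members with few UMIs in adipocyte-like nuclei (Pde4b, Pde8b, Pde10a and Pde11a in the aging matrix) are limited by depth. The part of RNA carried over from other types in their levels was not tested.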
